A study of Mus musculus with 6 samples.

Results

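Transcripts of 10 imprinted genes that regulate growth were examined in mouse embryos of 9.5 days post coitum, in tissue cut at the level of the presomitic mesoderm: Dlk1, Igf2, Peg3, Mest and Plagl1, which are expressed mainly from the paternal allele, and Meg3, Cdkn1c, H19, Igf2r and Grb10, which are expressed mainly from the maternal allele. Members were all probe sets that the annotation of the Affymetrix MOE430A array assigns to exactly 1 of these symbols. This gave 20 of 22626 probe sets, 9 for the paternally and 11 for the maternally expressed genes. They read 9 of the 10 genes, since the single H19 probe set is also annotated to Mir675 and therefore did not qualify. The genes were chosen by their role and with their ratios in the genotype comparison already in view, the low Grb10 value of 1 mutant pool among them, so the differences between genotypes are given as a description, and no test of them supports a statement.

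Total RNA came from 3 wild-type pools on a C57BL/6 background and from 3 pools of embryos homozygous for the targeted allele Dll3tm1Rbe, also called Dll3neo, on the same labelled background. No other allele or agent is named. The pools are biological replicates of pooled embryos. The sources used here do not state how many embryos each held. The tissue was cut at the border of the last-formed somite after the allantois had been removed, and it held all germ layers.

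In an imprinted gene the copy from 1 parent is silenced, usually by methylation of DNA set in the germ line, and the copy from the other parent is transcribed. Many paternally expressed genes promote growth of the fetus and many maternally expressed genes restrain it, with Igf2, a growth factor, and Igf2r, the receptor that removes it, as the classic opposed pair. Several members are neighbours with opposite parental expression, such as Dlk1 and Meg3, or Igf2 and H19. Dlk1 encodes a membrane protein with epidermal growth factor repeats that resembles the Delta ligands of Notch but lacks their receptor-binding DSL domain.

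Values are ratios, in which the 6 pools of a probe set are divided by their median, and they are listed in the order of pools 1, 2 and 3. A ratio therefore compares pools for 1 probe set, and it tells neither how abundant a transcript is nor whether it is present. The mutation was read by the single Dll3 probe set, at 1.46, 1.63 and 2.01 in the wild-type pools, and 0.480, 0.476 and 0.537 in the mutant pools (limma adjusted p = 0.00691). The position of this probe set relative to the targeted change was not analysed here. A pair of mutant pools stood apart from the rest. In mutant pool 1 all 9 heart muscle markers examined had their highest value, with a median ratio of 4.16 against 0.792 to 1.01 in the other pools. In mutant pool 2, 128 probe sets lay below a ratio of 0.5, against 19 to 56 in the other pools, and the 6 lowest values of the whole data set were all there. With 6 arrays the number of pools limits the precision of every value.

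Promoter sequences of 8 of the 10 genes were matched by symbol in RefSeq (build GRCm38.p6), with 15 entries of which a pair for Mest overlap, and the 250 bases before each start were searched. Those of Grb10 are shown because it was the member whose probe sets disagreed most and because it has separate starts. Such starts are used from the maternal allele in most tissues and from the paternal allele in neurons. Which of these uses each stretch shown here has was not analysed. The stretch of Dlk1, the member with the largest difference without overlap of genotypes, is shown for comparison. All are on GRCm38.p6 and written 5′ to 3′ on the gene's strand, and CpG dinucleotides, the targets of methylation, are in capitals. The upstream Grb10 start lies at chr11:12037421-12037670 (minus strand), the downstream one at chr11:12027972-12028221 (minus strand) and that of Dlk1 at chr12:109452573-109452822 (plus strand).
Grb10 upstream: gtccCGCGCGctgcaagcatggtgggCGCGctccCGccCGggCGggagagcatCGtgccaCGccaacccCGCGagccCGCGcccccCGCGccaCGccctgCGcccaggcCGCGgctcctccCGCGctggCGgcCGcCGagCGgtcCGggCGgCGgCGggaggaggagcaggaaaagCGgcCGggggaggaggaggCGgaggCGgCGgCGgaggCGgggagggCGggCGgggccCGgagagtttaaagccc
Grb10 downstream: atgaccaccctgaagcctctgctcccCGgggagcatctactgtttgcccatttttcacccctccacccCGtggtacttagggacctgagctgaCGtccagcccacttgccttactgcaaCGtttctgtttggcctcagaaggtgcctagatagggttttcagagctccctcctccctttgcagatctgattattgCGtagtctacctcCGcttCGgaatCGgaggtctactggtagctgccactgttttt
Dlk1: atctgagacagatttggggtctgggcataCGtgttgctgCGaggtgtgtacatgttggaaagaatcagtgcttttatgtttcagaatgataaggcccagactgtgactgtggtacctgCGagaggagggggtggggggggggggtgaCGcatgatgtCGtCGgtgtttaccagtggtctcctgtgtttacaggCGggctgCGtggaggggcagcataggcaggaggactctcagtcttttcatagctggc
The upstream Grb10 stretch holds 40 CpG dinucleotides, more than 98.7% of all 32851 promoters, while the downstream stretch and that of Dlk1 hold 8 each. Over the member promoters the median was 10 CpG dinucleotides, against 6 over all promoters.

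Plagl1 is a zinc finger transcription factor, so its core site GGGGCCCC, which reads the same on both strands, was searched for in the member promoters, its own included. It was found in 1 of 15 member promoters, that of Peg3, and in 0.889% of all promoters. The Peg3 stretch, at chr7:6730420-6730669 (minus strand, GRCm38.p6), is shown with that match in capitals.
Peg3: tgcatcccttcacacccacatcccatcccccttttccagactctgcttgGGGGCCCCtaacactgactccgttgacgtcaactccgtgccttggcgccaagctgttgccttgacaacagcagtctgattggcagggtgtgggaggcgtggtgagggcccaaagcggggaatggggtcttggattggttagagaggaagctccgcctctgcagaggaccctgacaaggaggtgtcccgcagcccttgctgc
The core TGGGAA of the Notch effector Rbpj, on either strand, was found in 5 of 15 member promoters, those of Igf2, Mest and Meg3, against 21.6% of all promoters. The overlapping Mest pair holds the same match, and counted once it leaves 4 of 14. The core motif of the insulator protein CTCF, on either strand, was found in 0 of 15, against 0.0335% of all promoters. A match of letters is not a bound site. The H19 transcript is the precursor of miR-675, whose mature arms are shown because 1 probe set is annotated to both genes. Levels of the mature arms were not measured. The seed, bases 2 to 8, is in capitals.
mmu-miR-675-5p: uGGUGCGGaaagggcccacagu
mmu-miR-675-3p: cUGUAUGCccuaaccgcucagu

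The members were on balance slightly higher in the mutant, with 14 of 20 probe sets higher by sign, against 49.1% of all probe sets tested. Their median log2 difference (mutant minus wild type) was 0.05, against about -0.0021 over all probe sets. Among the paternally expressed genes 8 of 9 probe sets were higher, with a median log2 difference of 0.09. Among the maternally expressed genes 6 of 11 were higher, with a median of 0.04. No member passed the test over all probe sets (0 of 20 with limma, where 0.00442% of all passed), and 2 of 20, those of Dlk1 and Cdkn1c, had an unadjusted p under 0.05 (1.16% of all). The pools of the genotypes did not overlap for 4 of 20 members, all 4 higher in the mutant, where 5.03% of all probe sets did not overlap and 3.05% did not overlap and were higher. These 4 were the probe sets of Dlk1 and Cdkn1c and 1 each of Igf2 and Peg3. In bulk tissue fewer cells of a type and less RNA per cell cannot be told apart.

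The shift of the members' median above that of all probe sets was not kept without mutant pool 1. That pool was the highest of the 6 for 10 of 20 members and for 7 of the 9 paternally expressed ones, against 12.3% of all probe sets. Without it, 10 of 20 members were higher, 5 of 9 paternally and 5 of 11 maternally expressed. The median log2 difference of all 20 was then 0.0095, against 0.012 over all probe sets in the same fit. The pool medians of the 20 ratios were 0.969, 0.946 and 0.990 in the wild-type pools, and 1.08, 0.993 and 1.02 in the mutant pools, so mutant pool 2 lay within 0.01 of wild-type pool 3. Leaving out 1 pool moved the log2 difference of single probe sets by over 1.5 times, or turned its sign, for 16 of 20 members, and the other 4 were those without overlap of genotypes. Quantile normalization moved the median over all 20 to 0.10, and leaving out 1 pool moved it to 0.01 (wild-type pool 2), 0.08 (wild-type pool 3), 0.10 (mutant pool 2) and 0.10 (mutant pool 3).

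**Figure D1:**
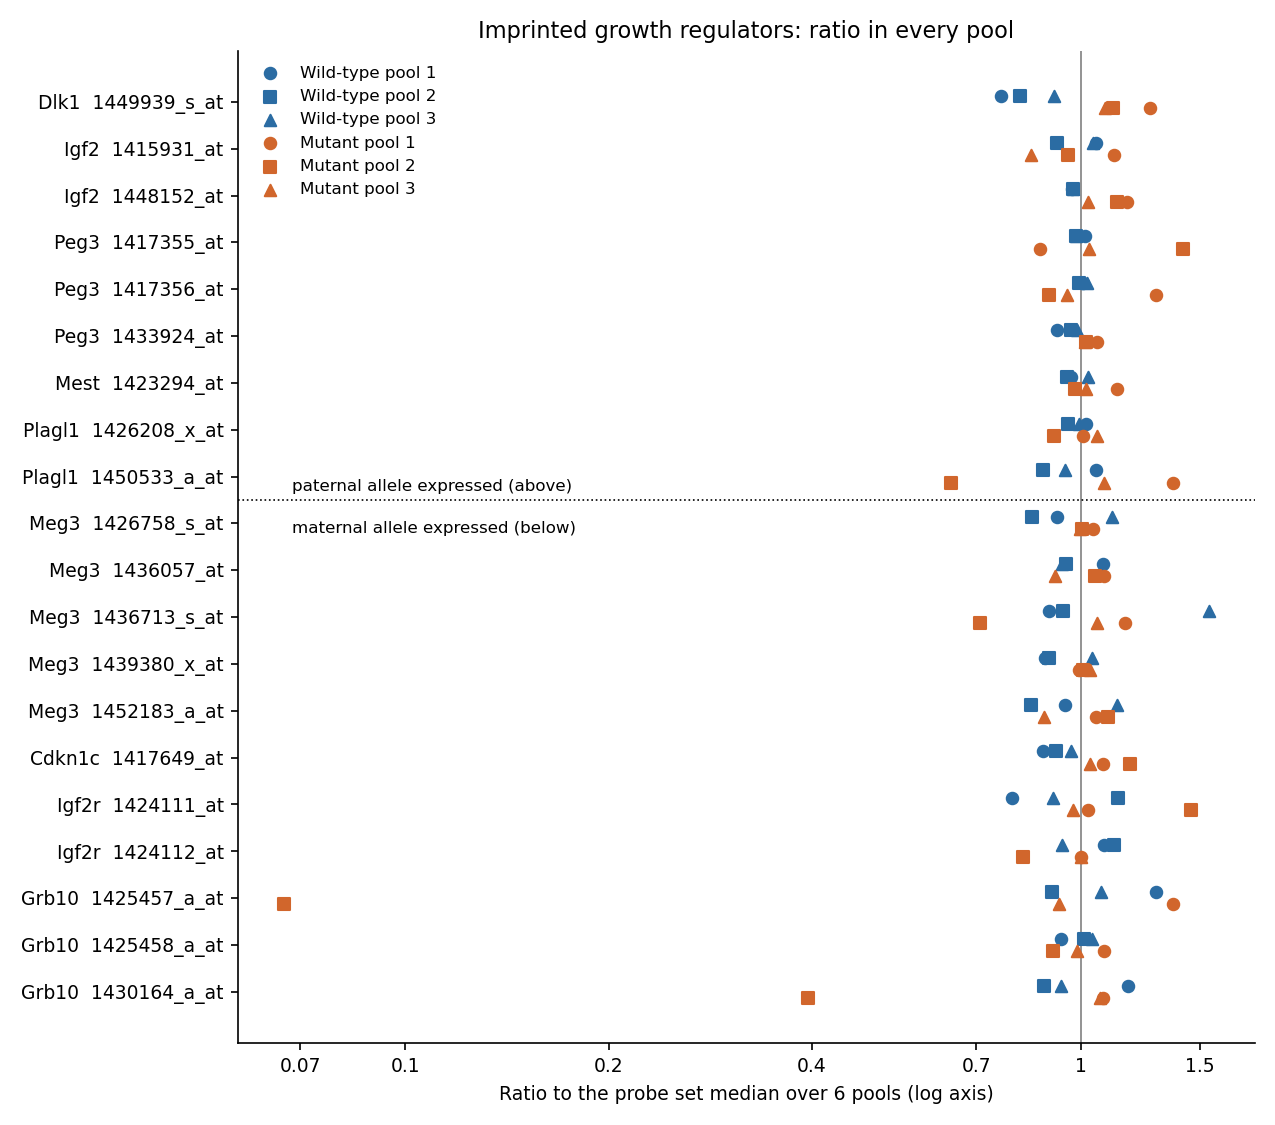
Ratio of each of the 20 member probe sets (rows) to its median over the 6 pools (log axis), with 1 point per pool, wild type in blue and mutant in orange. Most points lie close to 1, the Dlk1 points separate by genotype from 0.914 to 1.09, and mutant pool 2 lies far left at 0.0663 for 1 Grb10 probe set.

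Dlk1 had the largest difference among the members whose pools did not overlap. Its probe set 1449939_s_at read 0.762, 0.814 and 0.914 in the wild-type pools, and 1.26, 1.12 and 1.09 in the mutant pools. All mutant pools were above all wild-type pools, with mutant pool 1 the highest and wild-type pool 1 the lowest. The wild-type mean was 0.830 ± 0.0773 (SD, n = 3) and the mutant mean 1.16 ± 0.0951 (SD, n = 3), which is 1.39-fold higher (log2 difference 0.48, SE 0.12). Without mutant pool 1 the log2 difference was 0.41, and it stayed between 0.41 and 0.55 when any 1 pool was left out. The 5 probe sets most like it over the 6 pools, by root mean square difference of log2 ratio, were those of Polr2a (0.0814), Selenbp1 (0.0850), Nosip (0.106), Parva (0.108) and Anxa2 (0.111).

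Mesenchyme and matrix markers were also higher in the mutant, 7 of 7 measured. Of these, 4 had no overlap of genotypes, as for Dlk1: Col1a1, Col3a1, Postn and Dcn. Over all genes 4.95% had no overlap. Their median ratio was 0.943, 0.898 and 0.894 in the wild-type pools, and 1.13, 1.09 and 1.11 in the mutant pools. Such a pattern was not particular to mesenchyme, as Gata4, Gata6, Tie1, Amn, Zic1 and Olig2 of other marker lists were also higher without overlap. Presomitic mesoderm markers were lower in the mutant by sign, 8 of 8, and 3 of these, Tbx6, Hes7 and Lfng, had no overlap. Their median ratios were 1.01 to 1.14 in the wild type and 0.847 to 1.01 in the mutant. For these markers fewer presomitic cells and less RNA per cell cannot be told apart. The part of these tissues in the Dlk1 values was not tested.

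Igf2, the fetal insulin-like growth factor, was read by probe sets that did not give the same picture. Probe set 1448152_at read 0.971, 0.975 and 0.973 in the wild-type pools, and 1.17, 1.13 and 1.03 in the mutant pools, a log2 difference of 0.19 (SE 0.11). Its wild-type pools were nearly identical and all mutant pools lay above them. Probe set 1415931_at, annotated to the same transcript record, read 1.05, 0.921 and 1.04 in the wild-type pools, and 1.12, 0.958 and 0.845 in the mutant pools, a log2 difference of -0.05 (SE 0.13). Here the genotypes overlapped, mutant pool 3 was the lowest of all, and the difference ran from -0.16 to 0.04 when 1 pool was left out.

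Peg3, a zinc finger protein gene that affects growth and maternal behaviour, had 3 probe sets, all higher in the mutant by sign. Probe set 1433924_at read 0.922, 0.968 and 0.987 in the wild-type pools, and 1.06, 1.02 and 1.01 in the mutant pools, without overlap (log2 difference 0.10, SE 0.10). This was a small difference in a probe set whose 6 pools were closer together than those of 94.6% of all probe sets. The other probe sets mirrored each other in the mutant: 1417355_at read 0.870 and 1.42 in mutant pools 1 and 2, and 1417356_at read 1.29 and 0.898. Both stayed between 0.984 and 1.02 in the wild-type pools and between 0.954 and 1.03 in mutant pool 3. Their log2 differences were 0.12 (SE 0.17) and 0.04 (SE 0.15), with -0.07 for the first without mutant pool 2 and -0.12 for the second without mutant pool 1.

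Mest, which encodes a protein of the hydrolase fold family, read 0.966, 0.953 and 1.02 in the wild-type pools, and 1.13, 0.981 and 1.02 in the mutant pools. The genotypes overlapped, and the log2 difference was 0.09 (SE 0.11), or 0.03 without mutant pool 1.

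Plagl1 hardly differed between genotypes in the mean, but its probe sets spread differently. Probe set 1426208_x_at stayed between 0.914 and 1.06 in all pools (log2 difference about 0.0031, SE 0.11). Probe set 1450533_a_at read 1.05, 0.880 and 0.947 in the wild-type pools, and 1.37, 0.643 and 1.08 in the mutant pools. Mutant pools 1 and 2 were thus its extremes, and the log2 difference of 0.04 (SE 0.24) became -0.20 without mutant pool 1, 0.35 without mutant pool 2 and 0.09 after quantile normalization.

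Cdkn1c, an inhibitor of cyclin-dependent kinases that halts the cell cycle, was the maternally expressed gene without overlap of genotypes. It read 0.880, 0.920 and 0.967 in the wild-type pools, and 1.08, 1.18 and 1.03 in the mutant pools. Every mutant pool was above every wild-type pool, with means of 0.922 ± 0.0435 (SD, n = 3) and 1.10 ± 0.0759 (SD, n = 3). The log2 difference was 0.25 (SE 0.11), 1.19-fold higher in the mutant, and it stayed between 0.20 and 0.29 when any 1 pool was left out. Unlike Dlk1, its highest value was in mutant pool 2 and not in mutant pool 1.

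Meg3, the long non-coding RNA transcribed next to Dlk1, had 5 probe sets and none without overlap. Their log2 differences ran from -0.19 to 0.11, and 4 of the 5 were higher in the mutant. The exception, 1436713_s_at (log2 difference -0.19, and -0.04 after quantile normalization or 0.05 without wild-type pool 3), read 0.898, 0.942 and 1.55 in the wild-type pools, and 1.16, 0.708 and 1.06 in the mutant pools. Wild-type pool 3 was the highest pool for this and for 3 other Meg3 probe sets, while Dlk1 was lower there than in every mutant pool. The mean over the 5 probe sets gave 0.943, 0.895 and 1.14 in the wild-type pools, and 1.07, 0.962 and 0.975 in the mutant pools, a log2 difference of 0.02, which ran from -0.05 (wild-type pool 2 left out) to 0.12 (wild-type pool 3 left out).

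H19, the non-coding RNA paired with Igf2, can be given only by the probe set it shares with Mir675, which is not counted among the members. It read 0.967, 1.01 and 0.981 in the wild-type pools, and 1.06, 0.989 and 1.01 in the mutant pools (log2 difference 0.05, SE 0.10), with overlap of the genotypes.

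Igf2r, the receptor that clears Igf2, was read by probe sets of opposite sign. Probe set 1424111_at read 0.791, 1.13 and 0.908 in the wild-type pools, and 1.03, 1.45 and 0.974 in the mutant pools (log2 difference 0.28, SE 0.18). Probe set 1424112_at read 1.08, 1.12 and 0.938 in the wild-type pools, and 1, 0.820 and 1 in the mutant pools (log2 difference -0.16, SE 0.13). Mutant pool 2 was the highest pool of the first and the lowest of the second. Without that pool the log2 differences were 0.10 and -0.06, so both kept their sign and came closer to 0.

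Grb10, an adaptor that dampens signalling from the insulin and insulin-like growth factor receptors, had the widest disagreement between probe sets. Probe set 1425457_a_at read 1.29, 0.906 and 1.07 in the wild-type pools, and 1.37, 0.0663 and 0.929 in the mutant pools. The value in mutant pool 2 was the lowest of all probe sets in all pools, 16.8-fold below the mean of the other 5 pools. Probe set 1425458_a_at, annotated to the same transcript record, read 0.934, 1.01 and 1.04 in the wild-type pools, and 1.08, 0.908 and 0.988 in the mutant pools. It was also lowest in mutant pool 2, but by a small margin. Probe set 1430164_a_at read 1.17, 0.882 and 0.933 in the wild-type pools, and 1.08, 0.395 and 1.07 in the mutant pools, 2.60-fold lower in mutant pool 2 than the mean of the other pools.

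The mean Grb10 difference therefore rested on mutant pool 2. The log2 differences of the 3 probe sets were -1.30 (SE 0.91), about -0.0047 (SE 0.12) and -0.36 (SE 0.34), and without mutant pool 2 they were 0.06, 0.06 and 0.12. After quantile normalization between arrays they were -0.55, -0.01 and -0.23, and with an offset of 0.1 added to each ratio the first was -0.90. The range of -1.30 to about -0.0047 between probe sets, 1.29 wide, exceeded that of 99.96% of the 4956 genes with several probe sets, and was 0.54 wide after quantile normalization. Where each probe set lies along the transcript was not analysed here, and neither a transcript form nor a fault of the array was tested as the source of the low values.

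**Figure D2:**
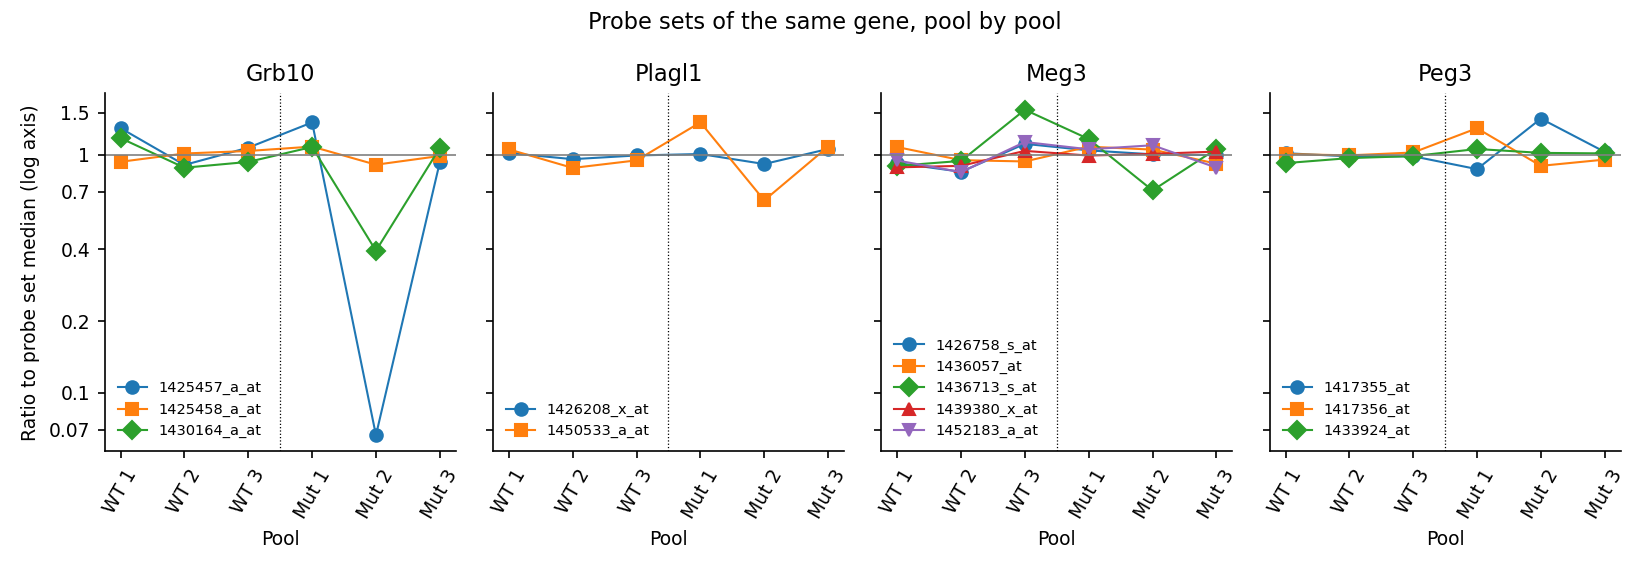
Ratio to the probe set median (log axis) in each pool for Grb10, Plagl1, Meg3 and Peg3, with 1 line per probe set and wild-type pools left of the dotted line. In mutant pool 2 the Grb10 probe sets read 0.0663, 0.908 and 0.395, and the Peg3 probe sets 1417355_at and 1417356_at diverge to 1.42 and 0.898.

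By the median, probe sets of the same member were no closer to each other over the pools than probe sets of different members. The median root mean square difference of log2 ratio was 0.28 over 19 pairs within a gene and 0.25 over 171 pairs between genes. The pairs within a gene were uneven. Those of Grb10 ran from 0.52 to 1.56, and Meg3, with 5 probe sets, gave the most pairs. Meg3 pairs with 1436713_s_at ran from 0.30 to 0.40, while its other pairs ran from 0.07 to 0.16, and the Igf2 pair was at 0.17. This measure also grows with the spread of each probe set. Of the 6 members with several probe sets, 3 (Igf2, Meg3 and Igf2r) had probe sets of opposite sign, a share of 50% against 52.3% of all genes with several. The median width of their log2 differences was 0.27, against 0.13 over all such genes, where the number of probe sets a gene has was not matched. Among the 6, the width exceeded that of 97.3% of genes for Igf2r, 89.7% for Meg3, 80.5% for Igf2, 32.1% for Peg3 and 12.7% for Plagl1, besides Grb10.

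**Figure D3:**
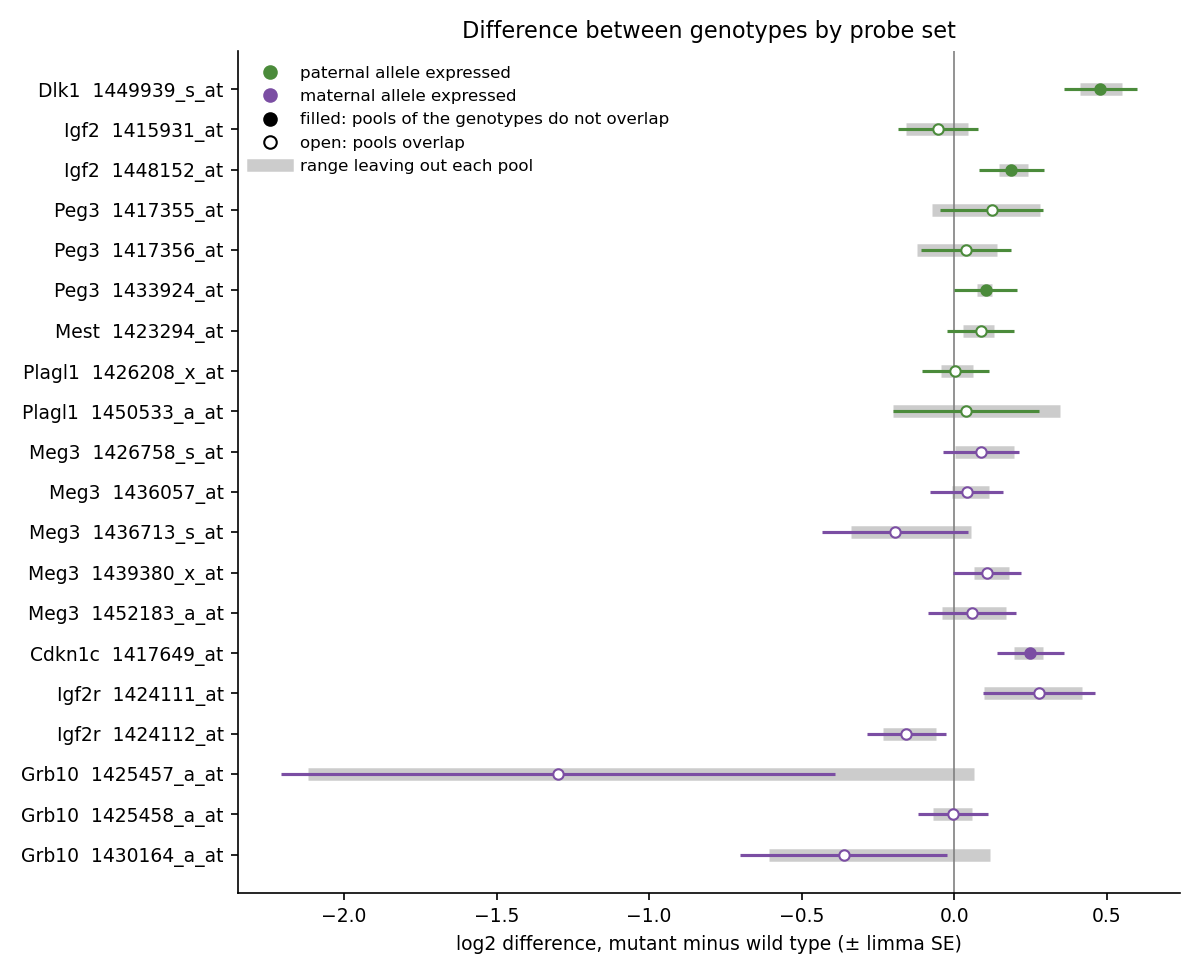
Fitted log2 difference (mutant minus wild type) of each member probe set with its limma standard error, and in grey the range when each pool in turn is left out. Filled points mark the 4 probe sets whose pools do not overlap, all right of 0, and the grey range of the Grb10 probe set 1425457_a_at runs from -2.12 to 0.06.

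Other imprinted genes were compared by the mean of their probe sets. They were listed by the allele reported in any tissue, for some only in placenta or brain. Which allele was expressed in the tissue used here was not measured. Of 16 measured genes listed as paternally expressed, 12 were higher and 4 lower, with a median log2 difference of 0.04. There were 0 without overlap, while 4.95% of all genes had no overlap and 51.1% were higher. The highest were Blcap (0.25, and 0.16 without mutant pool 2) and Snrpn (0.17, and 0.06 without wild-type pool 2). Airn (0.15, and 0.06 without mutant pool 3), the antisense RNA that silences Igf2r, came next. Blcap is counted in this list, although mouse Blcap is reported as mainly maternal in brain. The lowest were the amino acid transporter gene Slc38a4 (-0.22, and -0.03 without wild-type pool 3) and Mkrn3 (-0.16, and -0.10 without mutant pool 1). Of 20 measured genes listed as maternally expressed, 10 were higher and 10 lower, with a median of about -0.0033. The highest were Asb4 (0.30, and 0.16 without wild-type pool 1) and the matrix proteoglycan gene Dcn (0.25, and 0.16 without wild-type pool 3). Dcn, whose imprinting is reported in placenta, was the 1 gene of this list without overlap and is also among the mesenchyme markers. The lowest were Copg2 (-0.63, and -0.08 without mutant pool 2), a neighbour of Mest, and Rian (-0.47, and -0.16 without mutant pool 2), a non-coding RNA gene near Meg3. They were followed by Phlda2 (-0.20, and 0.09 without mutant pool 1). None of the 27 and 30 probe sets of these lists passed with limma, and 1 in each list had an unadjusted p under 0.05 (1.16% of all probe sets).

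Genes of insulin-like growth factor signalling did not move in 1 direction. Of 25 measured genes 14 were higher and 11 lower, with a median log2 difference of about 0.0039. The binding protein genes Igfbp5 (0.35, and 0.16 without mutant pool 1) and Igfbp4 (0.23) and the kinase gene Akt2 (0.21, and 0.11 without wild-type pool 1) were the highest. Igfbp5 and Akt2 were the 2 of 25 genes without overlap of genotypes, against 4.95% of all genes. Igfbp5 read 0.924, 0.965 and 0.958 in the wild-type pools, and 1.56, 1.11 and 1.01 in the mutant pools, and its probe sets differed, at 0.53 and 0.16. The list also counts Pdk1 (-0.11, and 0.03 without wild-type pool 3), a pyruvate dehydrogenase kinase gene that lies outside this signalling. Pdk1 and Igfbp1 (-0.10, and -0.03 without wild-type pool 1) were the lowest listed. None of the 53 probe sets of this list passed with limma, and 3 had an unadjusted p under 0.05 (1.16% of all probe sets).

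The kinases, cyclins and related inhibitors that act with Cdkn1c had 5 of 12 genes higher and 7 lower, with a median log2 difference of -0.02 and 0 genes without overlap. Ccne1 (0.23) was the highest and Ccne2 (-0.28, and 0.03 without wild-type pool 3) the lowest. The inhibitors closest to Cdkn1c in family had log2 differences of -0.04 (Cdkn1a, and 0.04 without mutant pool 1) and 0.03 (Cdkn1b, and about 0.0054 without wild-type pool 2). None of their 25 probe sets passed with limma, and 0 had an unadjusted p under 0.05 (1.16% of all probe sets).

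**Figure D4:**
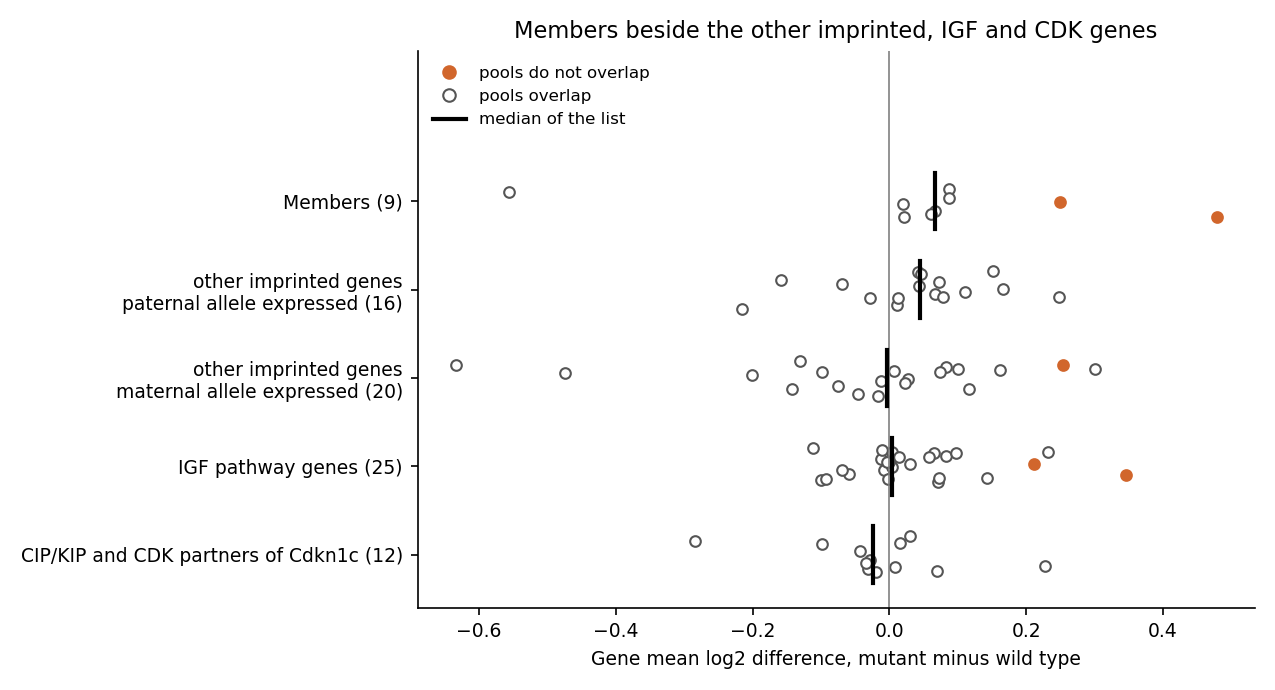
Log2 difference (mutant minus wild type) of the mean of each gene's probe sets for the 9 members and for the lists of other imprinted, insulin-like growth factor and cell cycle genes, with 1 point per gene and a bar at each median. Filled points, whose pools do not overlap, are Dlk1 and Cdkn1c among the members, Dcn, Igfbp5 and Akt2, and the members' point at -0.56 is Grb10.

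Markers of other tissues that the cut could include had smaller median differences than the heart, mesenchyme and presomitic mesoderm lists. The median log2 difference was 0.15 for 8 lateral plate markers, 0.12 for 7 endothelium markers, 0.06 for 8 visceral endoderm markers, 0.05 for 6 neural tube markers, 0.01 for 6 primitive blood markers and 0.03 for the 3 trophoblast markers measured. In that order 7, 5, 5, 3, 4 and 2 were higher in the mutant. Those without overlap numbered 2, 1, 1, 2, 0 and 0, against 4.95% of all genes. In mutant pool 1, where 10 of 20 members were highest, 9 of 9 heart muscle markers and 5 of 6 primitive blood markers were highest too. Of the 8 visceral endoderm markers, 4 were highest there and 4 in wild-type pool 1. In mutant pool 2, 5 of 7 endothelium markers were highest, as were Cdkn1c and 1 probe set each of Igf2r and Peg3. The part of these tissues in the members' values was not tested.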

How the data were processed

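RNA of 6 pools was measured on 6 arrays. The values as deposited by the authors are ratios on a linear scale, and each probe set appears to have been divided by its median over the arrays (median 1 within 0.0011 for 92.8% of 22626 probe sets and for all 20 members). RMA and MAS5 are named, without role, in the submitters' processing notes. The summarisation, normalization between arrays and absolute level are not given in the sources used here.

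After 64 control probe sets were left out, log2 ratios were fitted with limma 3.58.1 in R 4.3.3 (genotype only, Benjamini-Hochberg adjustment over all probe sets, threshold 0.05). On simulated noise for 22626 probe sets, with 200 changed, 0% were recovered at 1.5-fold, 75.5% at 2-fold and 95% at 3-fold. False calls numbered 0, 6 and 8. The noise was drawn independently for each probe set and pool. It held no pool effects shared by many probe sets, so recovery in the data may differ. With 3 against 3 pools an exact permutation test cannot go below 0.10, so none was run. Members and lists were chosen with earlier results of these data known. All member probe sets are described. Of the other lists, at most 4 genes per direction with the largest mean difference are named, besides Cdkn1a and Cdkn1b, which were added after their values were seen. Symbols follow the platform annotation, updated by Entrez ID through RefSeq, for 12393 genes. Plots used matplotlib 3.10.9. Alternatives were other scalings, offsets, filters, variance models, array weights, a block on the replicate number, and fits without each pool.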

Additional observations from a re-analysis of the deposited data

How the results depend on the processing

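No member passed limma's test under any of the 14 alternatives run, with the lowest adjusted p for Dlk1, 0.0826, under array weights, a fit whose weights did not fully converge. There 3641 of all probe sets had an unadjusted p under 0.05, against 262. The median log2 difference of the members was 0.03 to 0.10 over quantile normalization, median centring, offsets of 0.1 and 1, and array weights. The variance trend and the filter on medians, which kept all 20 members, cannot change this median and left it at 0.05. It was 0.07 for the mean of each gene's probe sets, and 0.0095 to 0.10 when a pool was left out. By sign, counted after the values were seen, 10 to 16 of 20 members, 5 to 8 of the 9 paternally and 5 to 9 of the 11 maternally expressed probe sets were higher when a pool was left out. Dlk1 and Cdkn1c stayed higher in the mutant throughout, and at an offset of 1, which shrinks log2 ratios by construction, their log2 differences were 0.24 and 0.13. Leaving out mutant pool 2 turned the sign of 6 of 20 members.

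A block on the replicate number cannot change the members' median, since each genotype holds every number, so it stayed at 0.05 by design. Under this block 0 members were called. With it 434 of all probe sets had an unadjusted limma p under 0.05, against 262 without it. Deviations of same-numbered pools correlated at 0.21, 0.02 and 0.17 over probe sets, against -0.21 to 0.08 for pools of different numbers. The values of 0.21 and 0.17 were thus the highest. The main fit did not pair the pools, and what the numbers stand for was not tested. Ratios carry no brightness, so dim probe sets could not be told from bright ones.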

Other observations

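Some imprinted genes beyond the members were also low in mutant pool 2 alone. The single Copg2 probe set read 0.321 there and 0.891 to 1.34 in the other pools, and its log2 difference of -0.63 was -0.08 without that pool. Of the 3 Rian probe sets, 1427580_a_at read 0.354 and 1452899_at read 0.401 there, while 1428055_at read 1.02. The log2 differences of the first pair were -0.78 and -0.68, and -0.28 and -0.24 without that pool.

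Over the 6 pools the probe sets most like the lowest Grb10 probe set, by root mean square difference of log2 ratio, were those of Pdia3 (0.32) and Ywhag (0.50), which read 0.0936 and 0.142 in mutant pool 2. Those most like 1430164_a_at included Gja1 (0.0899) and Hif1a (0.14), which read 0.415 and 0.446 there. A value far from 1 weighs most in this distance, so the search mainly picks probe sets that are low in mutant pool 2. It says little about likeness in the other pools. Of the 128 probe sets under a ratio of 0.5 in that pool, 85 were in genes with several probe sets, and 67 of these had another probe set above 0.9 in the same pool. The like counts were 24 of 28, 16 of 20 and 3 of 11 in the wild-type pools, and 23 of 27 and 24 of 30 in mutant pools 1 and 3. The bounds of 0.5 and 0.9 were chosen after the values were seen.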
